A study of Capsicum annuum with 12 samples.

Results

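The regions described here are the H3K4me3 and H3K27me3 peaks on the chromosome numbered 1 of pepper (Capsicum annuum), in young leaves of the cultivar labelled 59. Peaks of each library were merged and the replicates intersected. A base of a mark counts as shared when replicates 1 and 2 both cover it. Intervals of at least 100 bp of shared bases are called shared regions. Chromosome 1 had 7569 of them, out of 60520 on the 12 chromosomes. They comprise 3773 of 31452 H3K4me3 regions and 3796 of 29068 H3K27me3 regions. The chromosome was chosen by the measured positions of its peaks along the length, so every position, share and bin value below is a description and carries no test.

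H3K4me3, a trimethyl group on lysine 4 of histone H3, marks the start of transcribed genes in plants as in other eukaryotes. H3K27me3 is written by Polycomb complexes and in plants typically covers silenced genes, many of them developmental regulators. Both marks therefore tend to follow genes, which in large plant genomes crowd toward the chromosome ends. H3K9me2 is the mark of silenced repeats and transposons in plants.

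The study examined the folding of the pepper genome, and its chromatin immunoprecipitation libraries map histone marks along the chromosomes. There were 2 immunoprecipitated replicates each of H3K4me3, H3K27me3 and H3K9me2, and 6 input samples, all from young leaves of the same cultivar, with no treatment named in the labels. The labels do not say whether replicates came from separate plants, so the spread between them may be technical. The control in the calling was an input, and the values of the inputs themselves were not analysed here.

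The H3K4me3 lists held 4112 and 4066 peaks on chromosome 1, and the H3K27me3 lists held 4723 and 4277. How many reads each library holds in total was not found in the labels or lists used here. The fold and p-value of a peak together give the fragment number at its summit. Its median on chromosome 1 was 75 and 80 fragments in the H3K4me3 libraries, and 21 in both H3K27me3 libraries. H3K4me3 peaks thus rest on more fragments than H3K27me3 peaks. Over the 334 bins of 1 Mb, the replicates gave Pearson's r of 0.998 for H3K4me3 and 0.995 for H3K27me3, as a description of bins that share a chromosome. Chromosome 1 was taken to be 333 Mb long, the last peak end over the 6 lists, with its midpoint at 166.6 Mb.

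The amounts of both marks were split almost evenly between the sides of the midpoint, while their placement was not. H3K4me3 covered 1.927 and 1.916 Mb on the left side in replicates 1 and 2, against 1.746 and 1.752 Mb on the right side. The left side thus held the larger amount in both libraries. H3K27me3 covered 1.550 and 1.369 Mb on the left, against 1.715 and 1.509 Mb on the right, so its order was the opposite. Of the shared bases, 52.2% of H3K4me3 and 47.3% of H3K27me3 lay on the left. On chromosomes 3 to 12 the left share of H3K4me3 ran between 13.1%, on chromosome 8, and 74.96%, on chromosome 6. By this measure chromosome 1 was one of the more balanced, and the asymmetry named for it concerns where on each side the marks sit.

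On the left side, both marks were gathered at the chromosome end. The outer 15% of the length held 62.7% of the shared H3K4me3 bases of the left side, against 28.1% in the outer 15% of the right side. Single libraries gave 62.8% and 62.9% on the left, and 28.6% and 28.9% on the right, so the sides were far apart relative to the replicates. On chromosomes 3 to 12, the right outer share of H3K4me3 ran between 52.8% and 67.8%, and all 10 lay above chromosome 1. The left outer share of chromosome 1 lay inside the range of those chromosomes, which was 43.8% to 75.5%. It is therefore the right side that departs.

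H3K27me3 also had the smaller outer share on the right, with a smaller gap between the sides. Its outer shares on chromosome 1 were 61.05% on the left and 45.6% on the right. This gap of 15.4 points was not extreme. On chromosomes 3 to 12, left minus right ran between -18.6 and 16.7 points, and 2 of the 10 gaps were larger in size. Replicates 1 and 2 gave 61.4% and 60.9% on the left, against 46.3% and 45.8% on the right. On chromosomes 3 to 12 the right outer share was 59.7% to 85.7%, again above chromosome 1 on all 10. The left outer share of H3K27me3 was within the 50.9% to 78.8% of those chromosomes but below 9 of the 10. For this mark both sides lay further inward than on most chromosomes.

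The same contrast appears as a distance. Counted inward from its own end, the left side reached 50% of its H3K4me3 bases at 26.6 Mb, whereas the right side reached it at 80.6 Mb. As a percent of length these distances were 7.98% on the left and 24.2% on the right. No right side of chromosomes 3 to 12 needed more than 13.6%. Left sides of those chromosomes needed 7.43% to 20.8% for H3K4me3, with the highest value on chromosome 8. For H3K27me3 the distances were 33.0 Mb on the left and 59.4 Mb on the right, or 9.91% and 17.8% of the length. The left sides of chromosomes 3 to 12 needed between 4.35% and 13.1%, with 3 of 10 above chromosome 1. The right sides of chromosomes 3 to 12 needed between 3.49% and 11.6%.

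**Figure D1:**
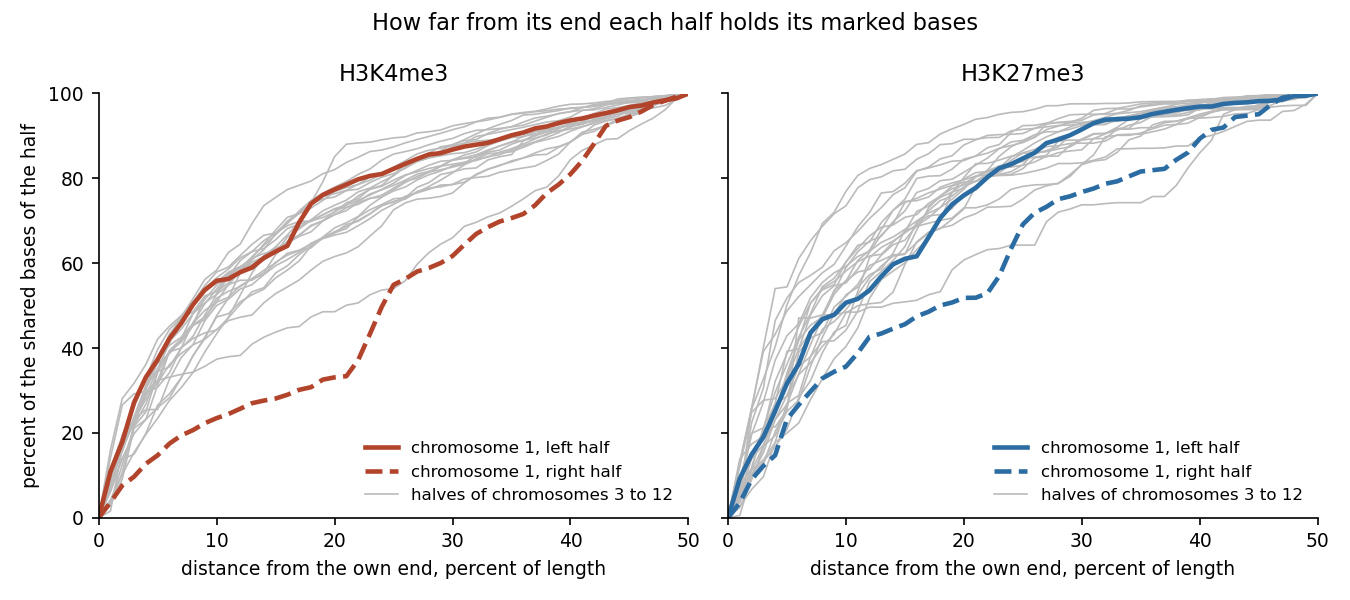
The curves plot the percent of the shared bases of one side (y axis) against the distance from its own chromosome end in percent of length (x axis), for H3K4me3 and H3K27me3. The dashed curve, the right side of chromosome 1, reaches 50% at 24.2% of the length for H3K4me3, while the solid curve, the left side, reaches it at 7.98% and runs among the grey curves of chromosomes 3 to 12.

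In bins of 5 Mb, the first bin of the chromosome, from 0 to 5 Mb, was the richest in both marks. It held 267 kb of shared H3K4me3 in 291 regions, with 301 and 304 kb in the single libraries. Next in H3K4me3 came 5 to 10 Mb with 201 kb, 55 to 60 Mb with 148 kb and 10 to 15 Mb with 148 kb. The right side entered this order at the fifth place, with 143 kb at 255 to 260 Mb, followed by 139 kb at 250 to 255 Mb. The richest H3K4me3 bins of the right side are thus interior bins, not the end of the chromosome.

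For H3K27me3 the first bin held 150 kb, with 210 and 179 kb in replicates 1 and 2. The bin from 315 to 320 Mb, near the right end, was second with 128 kb, and 255 to 260 Mb followed with 117 kb. The right end is thus a leading place for H3K27me3 and not for H3K4me3.

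The poorest stretches of the marks overlapped but did not coincide. The longest run of 5 Mb bins below 50% of the 12-chromosome mean spanned 90 to 170 Mb for H3K4me3. It comprised 16 bins and held 277 kb in all. For H3K27me3 it spanned 105 to 175 Mb, in 14 bins with 86.4 kb in all. Both runs lie mainly on the left of the midpoint. The single poorest H3K27me3 bin, 150 to 155 Mb, held 1.12 kb of shared bases, and 2.02 and 2.30 kb in the single libraries. The single poorest H3K4me3 bin was 265 to 270 Mb on the right side, with 11.8 kb. By a narrow margin, 150 to 155 Mb was second poorest in H3K4me3, with 11.9 kb.

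In bins of 1 Mb, the left side was the more uneven of the sides. The median bin held 5.11 kb of H3K4me3 on the left and 7.27 kb on the right. The highest bin held 58.8 kb on the left, starting at 9 Mb, and 47.9 kb on the right, starting at 251 Mb. The 10 richest bins carried 30.2% of the H3K4me3 bases of the left side and 21.2% of those of the right. For H3K27me3, medians were 3.62 kb on the left and 4.73 kb on the right. There were 28 bins on the left and 14 on the right with no shared H3K27me3 base, against 4 and 2 for H3K4me3. Gaps between neighbouring shared H3K4me3 regions had a median of 22.7 kb on the left and 30.6 kb on the right. H3K27me3 regions lay closer together, with median gaps of 2.43 kb on the left and 1.92 kb on the right. Neighbouring regions were not joined, and whether close ones are parts of a longer region was not tested.

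A 1 Mb bin was called dense where the mean over 5 neighbouring bins reached the mean of all bins of the 12 chromosomes, which was 9.03 kb for H3K4me3 and 6.02 kb for H3K27me3. Of 334 bins on chromosome 1, 120 were dense in H3K4me3, with 49 on the left and 71 on the right. The share was 35.9%, beside 26.5% of all bins of the 12 chromosomes. For H3K27me3, 144 bins were dense, 65 on the left and 79 on the right, or 43.1% beside 31.8%. Both marks were dense in 101 bins, 46 on the left and 55 on the right, or 30.2% beside 23.4%. Bins just inside and just outside the limit lay at 1.02 and 0.973 times the mean for H3K4me3, and at 1.01 and 0.993 times the mean for H3K27me3.

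A bin was called poor where the 5-bin mean was under 25% of the mean of all bins. For H3K4me3, 10 bins were poor, or 2.99% beside 15.3% of all bins, and they formed no run of 5 bins. For H3K27me3, 61 bins were poor, or 18.3% beside 34.1%, with 42 on the left and 19 on the right. The bins nearest the limit lay at 0.247 and 0.252 times the mean for H3K4me3, and at 0.249 and 0.254 for H3K27me3. Poor H3K27me3 bins formed 7 blocks of at least 5 bins between 109 and 189 Mb. The longest of them, 140 to 155 Mb, held 0.578 kb of H3K27me3 per Mb.

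**Figure D2:**
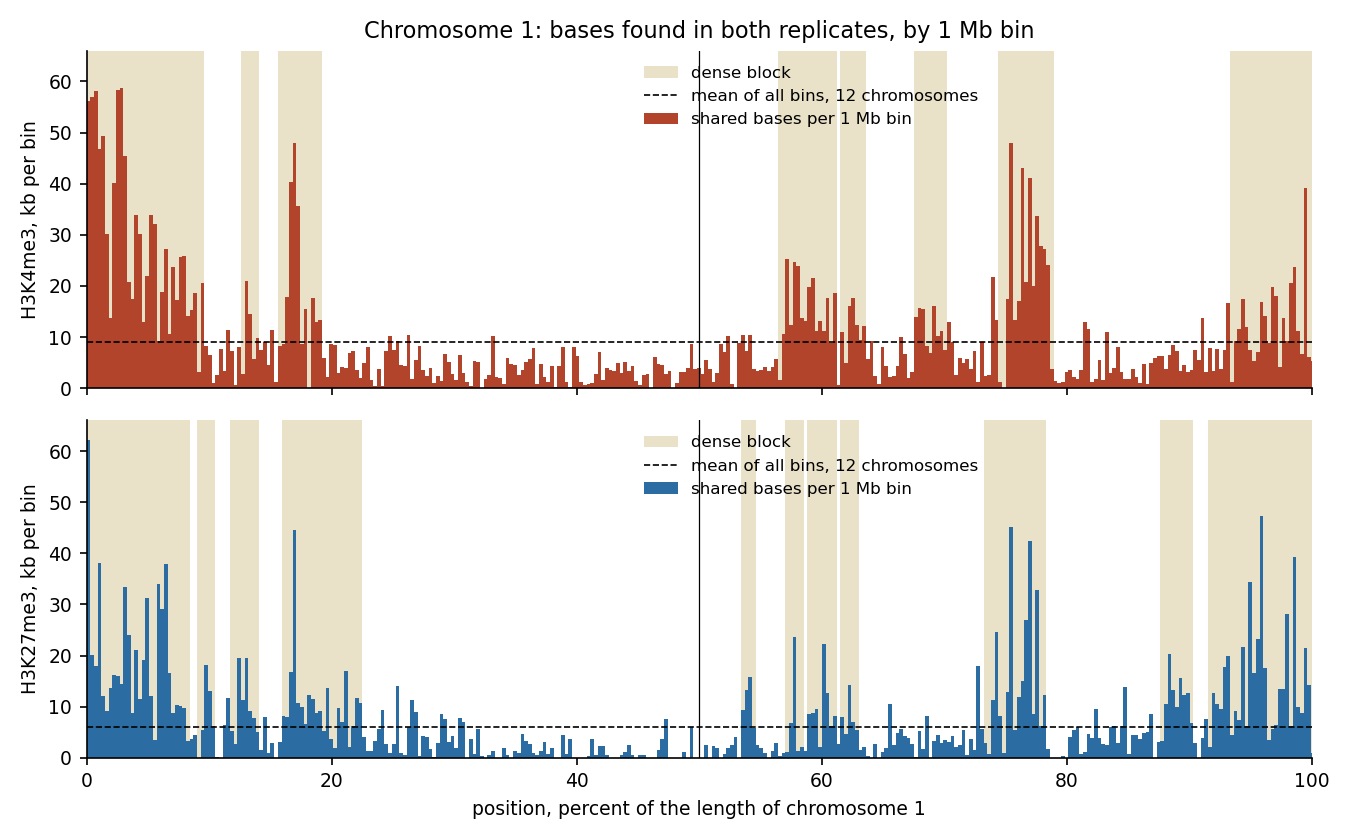
Bars give shared bases in kb per 1 Mb bin (y axis) along chromosome 1 in percent of its length (x axis), for H3K4me3 above and H3K27me3 below. Shaded bands are dense blocks, the dashed line is the mean of all bins and the vertical line is the midpoint: the left side is filled from its end, and the right side carries separate interior bands and a low last one in H3K4me3.

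Runs of at least 3 dense bins made 8 H3K4me3 blocks and 11 H3K27me3 blocks. The H3K4me3 blocks of the left side were 0 to 32 Mb, 42 to 47 Mb and 52 to 64 Mb. The first of these carried 29.6 kb per Mb and held 28.8% of all shared H3K4me3 bases of the chromosome. Only the last of the 3, with 18.9 kb per Mb, lay wholly between 15% and 85% of the length, which is what interior means here. The right side had 4 interior blocks, at 188 to 204, 205 to 212, 225 to 234 and 248 to 263 Mb. These 4 blocks together held 23.5% of shared H3K4me3 and 17.2% of shared H3K27me3 in 14.1% of the length. The last block, 311 Mb to the right end, held 8.77% of the H3K4me3 bases.

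The block at 248 to 263 Mb was the richest of the right side in H3K4me3, with 22.6 kb of H3K4me3 and 15.4 kb of H3K27me3 per Mb. It held 10.3% of the H3K4me3 bases of the chromosome and 9.44% of the H3K27me3 bases. Both marks are dense there, and H3K27me3 has its own block at 244 to 261 Mb. The block at 225 to 234 Mb was dense in H3K4me3 alone, with 11.7 kb of H3K4me3 and 3.25 kb of H3K27me3 per Mb. A stretch of the opposite kind lay at 292 to 301 Mb, where H3K27me3 covered 11.7 kb per Mb and H3K4me3 5.22 kb per Mb.

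H3K27me3 was dense at 0 to 28, 30 to 35, 39 to 47 and 53 to 75 Mb on the left. On the right it was dense at 178 to 182, 190 to 195, 196 to 204, 205 to 210, 244 to 261 and 292 to 301 Mb, and beyond 305 Mb. Interior dense bins numbered 60 for H3K4me3, with 12 on the left and 48 on the right, and 65 for H3K27me3, with 24 on the left and 41 on the right. Bins dense in both marks and interior numbered 43, of which 32 lay on the right. On chromosomes 3 to 12 the number of interior H3K4me3-dense bins ran between 0 and 23. These made up 25.8% of the 233 interior bins of chromosome 1, and 0 to 13.1% of the 120 to 201 interior bins of the others. For H3K27me3 the share of interior bins was 27.9% on chromosome 1, against 0.521% to 16.6% on the others. For bins dense in both marks it was 18.5%, against 0 to 12.6%. With no smoothing and a limit of 1.5 times the mean, interior dense bins fell to 6 on the left and 26 on the right for H3K4me3, and to 15 on the left and 22 on the right for H3K27me3.

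The 2 long stretches between the H3K4me3 blocks were thin but not empty. From 64 to 188 Mb, the shared bases averaged 4.10 kb of H3K4me3 and 2.96 kb of H3K27me3 per Mb. The stretch from 263 to 311 Mb, between the last interior block and the right end, averaged 4.95 kb of H3K4me3 and 6.39 kb of H3K27me3 per Mb. H3K27me3 thus covered more bases than H3K4me3 next to the right end block, and fewer in the middle of the chromosome. A short stretch outside the H3K4me3 blocks, 246 to 248 Mb, was rich in both marks, with 17.6 kb of H3K4me3 and 17.9 kb of H3K27me3 per Mb. The 5-bin means of H3K4me3 there, 8.26 and 7.78 kb, lay below the limit of a dense bin because thin bins lie on both sides. The stretch adjoins the H3K4me3 block that starts at 248 Mb and belongs to the H3K27me3 block at 244 to 261 Mb. That H3K4me3 block opens with the longest stretch of the right side without shared H3K4me3, from base 248105369 to 250006483. Its first bins were called dense only through the 5-bin mean.

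Block borders were placed, after the profile had been seen, at the steepest step in covered bases within 3 Mb of a block edge, comparing 3 Mb on each side. The steepest of the interior ones in H3K4me3 was the left edge of the left interior block, at 54.3 Mb. There the mark covered 43.1 kb per Mb on the dense side and 6.10 kb per Mb on the poor side. Replicates 1 and 2 placed it at 54.6 and 54.3 Mb. H3K27me3 stepped at nearly the same place, with 24.5 kb per Mb on the dense side and 3.92 kb per Mb on the poor side.

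The right edge of the last interior block, at 261.7 Mb, was the sharpest as a ratio. H3K4me3 covered 29.8 kb per Mb on its dense side and 2.02 kb per Mb on its poor side, a ratio of 14.7. Both libraries placed it at the same 0.1 Mb step, with 33.4 and 32.6 kb per Mb on the dense side and 2.11 and 2.21 kb per Mb on the poor side. H3K27me3 covered 17.3 and 15.7 kb per Mb on the dense side, and no base on the poor side in either library. The steepest step of H3K27me3 itself lay further inside, at 259.1 Mb, with 27.9 kb per Mb on the dense side and 5.78 kb per Mb on the poor side. The last H3K4me3 region before the border ended at base 261693951 and the next one began at base 262105591. The longest stretch of the right side without shared H3K27me3, 4217 kb, began at the same border, at base 261583387, and ended at base 265800737.

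The left edge of that block lay at 250.4 Mb, where H3K4me3 covered 26.1 kb per Mb on the dense side and 3.64 kb per Mb on the poor side. The first right interior block began at 189.5 Mb, with 19.8 kb per Mb on the dense side and 3.00 kb per Mb on the poor side, behind a gap of 1102 kb without shared H3K4me3. The H3K4me3 edge of the left end block lay at 33.4 Mb, with 12.1 kb per Mb on the dense side and 1.72 kb per Mb on the poor side. Not every edge was sharp. The left edge of the right end block, at 313.8 Mb, had 13.3 kb per Mb on the dense side and 6.89 kb per Mb on the poor side.

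**Figure D3:**
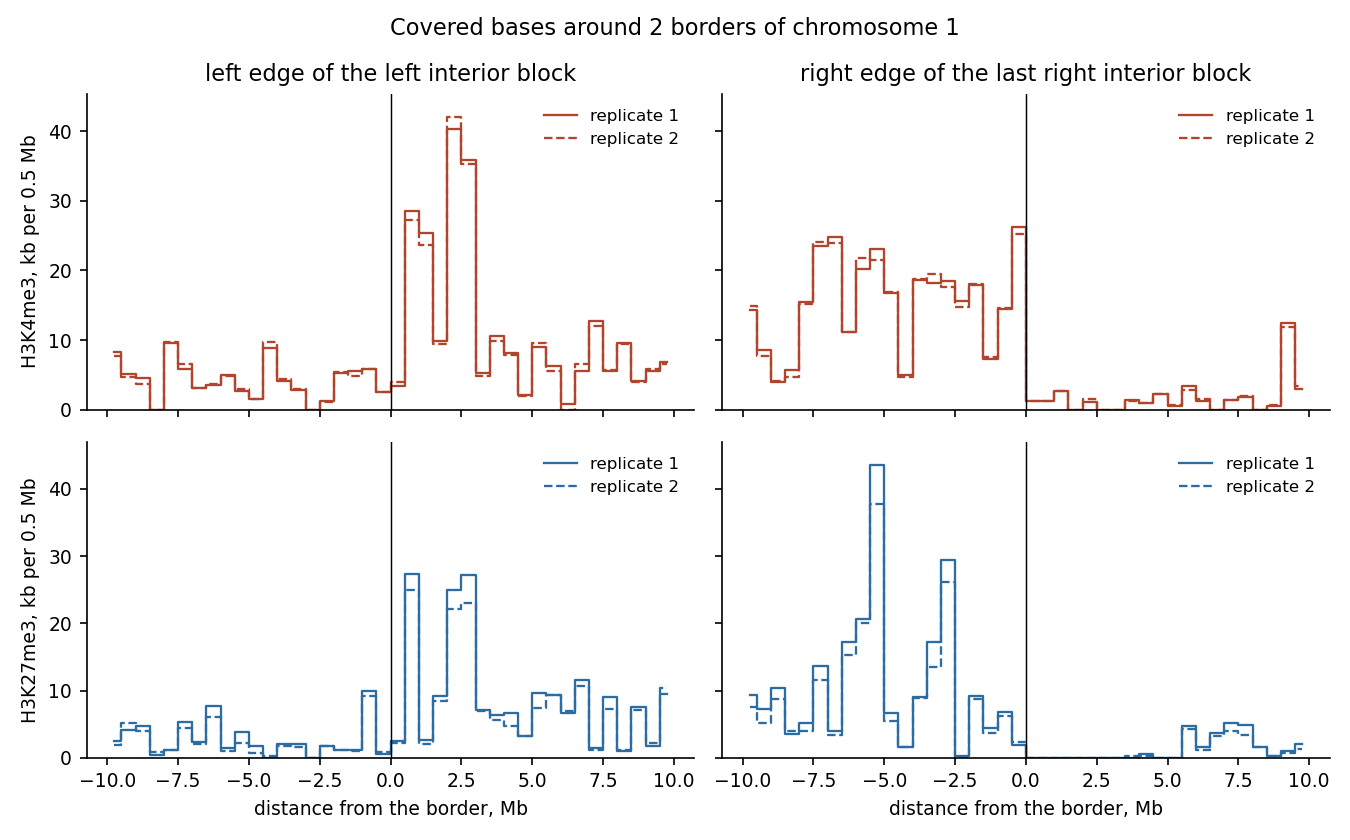
Covered bases in kb per 0.5 Mb (y axis) are plotted against distance from the border in Mb (x axis) for the 2 interior H3K4me3 borders with the largest steps, in both replicates of H3K4me3 (top) and H3K27me3 (bottom). The replicate lines lie nearly on each other, and right of the second border H3K27me3 is at 0 for 3 Mb in both libraries.

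Set on a common scale of percent of length, chromosome 1 was compared with chromosomes 3 to 12 in 20 bins of 5%. The departure is the percent of a chromosome's bases that would have to be moved to match the mean profile of chromosomes 3 to 12. It was 24.2 points for H3K4me3 on chromosome 1, with 24.1 and 23.8 points in the single libraries. When each of chromosomes 3 to 12 was set against the mean of the other 9, the departure ran between 5.71 points, on chromosome 5, and 41.5 points, on chromosome 8. There were 2 of those 10 above chromosome 1. For H3K27me3 it was 19.99 points on chromosome 1, between 9.39 and 40.5 points on the others, and 4 of 10 lay above. In total departure chromosome 1 was thus high but not extreme, and the pattern shows in single bins.

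H3K4me3 on chromosome 1 lay above all 10 chromosomes in 5 bins, from 50% to 70% and from 75% to 80% of the length, and below all 10 in 1 bin, the last. The bin from 75% to 80% departed most upward, with 10.4% of the H3K4me3 bases against a mean of 3.58% ± 1.07 (SD, n = 10 chromosomes). Further bins far above the mean were 55% to 60%, with 6.41% against 1.72% ± 0.550, and 15% to 20%, with 7.64% against 4.19% ± 2.16. The last of these lay inside the range of the 10. Then came 60% to 65%, with 4.96% against 2.00% ± 0.715, and 65% to 70%, with 4.26% against 2.18% ± 0.858. These 5 bins overlap the interior blocks of both sides.

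Downward, the last bin departed most, with 7.04% of the H3K4me3 bases on chromosome 1 against a mean of 15.7% ± 6.31 and a lowest value of 7.83%. The bins from 80% to 95% held 2.38%, 2.21% and 4.18% on chromosome 1, against means of 5.55% ± 4.75, 6.61% ± 4.41 and 9.23% ± 3.91. Each of these 3 lay below 9 of the 10 chromosomes. The fifth was 10% to 15% of the length, with 3.60% against 5.48% ± 3.32. The 5 bins farthest below the mean thus make up the whole outer 20% of the right side and 1 bin of the left. A total of 9 bins lay below the mean, and the other 4, all on the left, departed by less.

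H3K27me3 lay above all 10 chromosomes in 4 bins, from 50% to 65% and from 75% to 80% of the length. The bin from 75% to 80% again led, with 9.12% on chromosome 1 against a mean of 2.78% ± 1.52. The bins from 15% to 20%, 60% to 65%, 55% to 60% and 50% to 55% followed, at 7.08%, 4.08%, 3.03% and 2.57% on chromosome 1, against means of 4.32%, 1.44%, 0.759% and 0.828%. Below the mean, 90% to 95% held 6.54% on chromosome 1 against 12.3% ± 3.33, under all 10 chromosomes. The last bin held 12.2% against 17.8% ± 5.96, and 9 of 10 chromosomes lay above it. The others were 80% to 85%, with 3.28% against 6.03% ± 4.68, 85% to 90%, with 5.25% against 7.26% ± 4.32, and 0 to 5%, with 14.98% against 16.6% ± 7.80. H3K27me3 thus shares the interior excess and keeps more of the right end than H3K4me3 does.

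**Figure D4:**
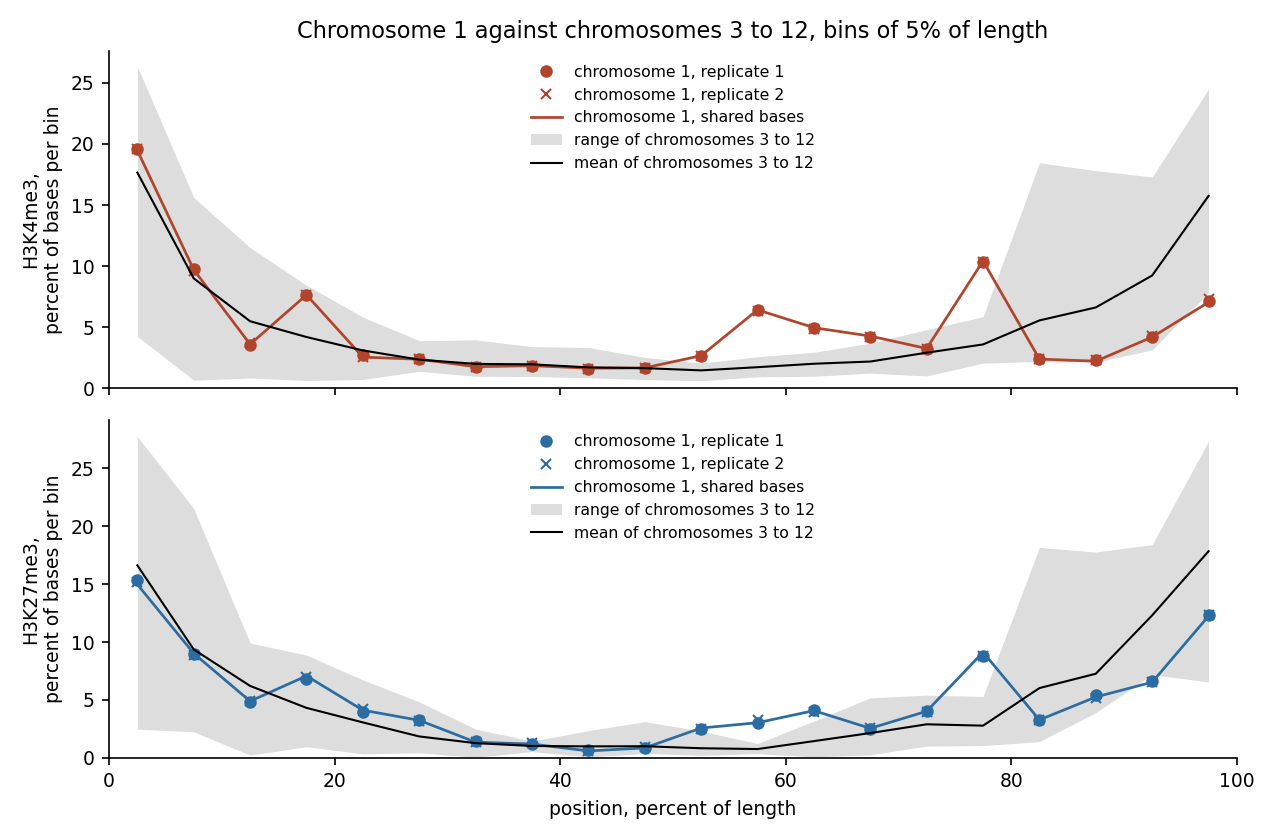
The percent of a chromosome's covered bases in each bin of 5% of length (y axis) is plotted against position in percent of length (x axis), for H3K4me3 above and H3K27me3 below. The colored line and symbols, chromosome 1 and its replicates, leave the grey range of chromosomes 3 to 12 upward at 75% to 80%, with 10.4% of the H3K4me3 bases and 9.12% of the H3K27me3 bases.

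Wider windows showed the interior excess of the right side in both marks. From 55% to 80% of the length, chromosome 1 held 29.3% of its H3K4me3 bases, against 7.14% to 17.4% on chromosomes 3 to 12. It held 22.8% of its H3K27me3 bases there, against 3.62% to 17.4%. In the mirror window, from 20% to 45%, it held 10.2% of its H3K4me3 bases, and 7 of the 10 chromosomes held more. It held 10.5% of its H3K27me3 bases in that window, and 2 of the 10 chromosomes held more. The 2 marks thus stood on different sides of most chromosomes there. The middle of the length, from 30% to 70%, held 25.2% of H3K4me3 on chromosome 1, against 9.75% to 19.1% on the others, and 16.2% of H3K27me3 against 5.34% to 15.6%.

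Fold enrichment, peak width and recovery in the other replicate were not used to choose the chromosome. Fold is the caller's ratio of fragments over the local background and belongs to a single peak. The median fold of H3K4me3 peaks was 23.8 and 23.2 on the left, against 27.6 and 23.6 on the right. For H3K27me3 it was 8.46 and 8.54 on the left, against 8.47 and 8.66 on the right. The left values were the lower ones in all 4 libraries, and by very little in 3 of them. The ratio of left over right averaged 0.924 for H3K4me3 and 0.992 for H3K27me3, a difference of -0.0678 (n = 2 libraries each). An exact two-sided permutation test of the mark labels over the 4 libraries gave p = 0.333, the smallest that 6 arrangements allow. After Benjamini-Hochberg adjustment over 3 measures it was 1.

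Median peak widths of the sides lay within a few percent of each other. Median H3K4me3 widths were 799 and 824 bp on the left, against 818 and 821 bp on the right, and H3K27me3 widths were 475 and 464 bp on the left, against 479 and 475 bp on the right. The left-over-right ratio was higher in H3K4me3 by 0.00597 (n = 2 libraries each, exact two-sided permutation p = 1). A peak was found again where it shared 50% of the shorter peak with a peak of the other replicate. On the left 89.4% and 91.9% of H3K4me3 peaks were found again, against 90.8% and 90.8% on the right. For H3K27me3 the shares were 73.99% and 83.9% on the left, against 75.4% and 85.9% on the right. The left-minus-right share averaged -0.132 points in H3K4me3 and -1.67 points in H3K27me3, a difference of 1.54 points (n = 2 libraries each, exact two-sided permutation p = 0.667, adjusted p = 1). These tests compared the marks in their left-right contrasts, and the left side was not tested against the right. No test of 2 against 2 libraries can pass at 0.05. The values therefore do not show that the marks are alike in these contrasts, or that the sides are alike. Without replicate 2 of both marks the differences in width and in recovery changed sign, to -0.0149 and -0.0363 points.

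When the chromosome was cut into segments by its H3K4me3 blocks, a choice made with the profile known, the right interior blocks held the H3K4me3 peaks of highest median fold. Their medians were 30.9 and 26.5 in replicates 1 and 2. The right end block had the lowest, 21.4 and 17.7, and also the narrowest H3K4me3 peaks, with medians of 749 and 717 bp. The left end blocks had median folds of 24.3 and 23.5, and the left interior block 21.6 and 21.5. Peaks between the blocks stood at 26.1 and 23.6, at or above the medians of the left end blocks in both libraries. H3K27me3 medians spanned a narrower range, between 7.81 and 9.14 over all segments and libraries, with the right end block at 8.25 and 7.81.

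Among these segments, the right end block leaned most toward H3K27me3. Bases covered by H3K27me3 amounted to 1.48 and 1.28 times those covered by H3K4me3 in the right end block, in replicates 1 and 2. The ratio was 0.733 and 0.643 in the left end blocks, 0.762 and 0.702 in the left interior block, and 0.639 and 0.573 in the right interior blocks. Between the blocks it was 1.09 and 0.958. The 2 ends therefore had opposite majorities, and the right interior blocks resembled the left end in this respect. H3K4me3 set the segments, so the ratio is not independent of how they were cut.

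**Figure D5:**
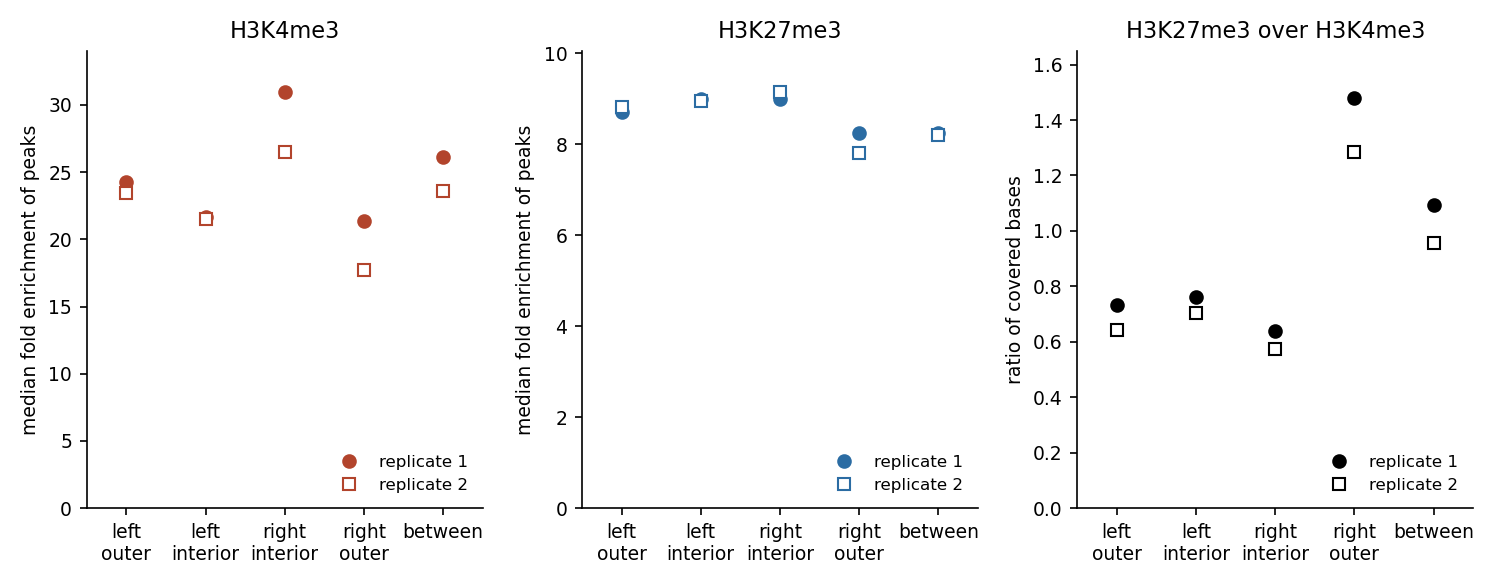
Points give, for each replicate and segment of chromosome 1 (x axis), the median fold enrichment of H3K4me3 and of H3K27me3 peaks and the ratio of H3K27me3 to H3K4me3 covered bases (y axes). The right end block has the lowest H3K4me3 medians, 21.4 and 17.7, and the highest ratios, 1.48 and 1.28.

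Some bases carried both marks. In a leaf made of many cell types this may be the same or different cells, which was not tested. Such intervals numbered 230 on the left, with 111 kb, and 194 on the right, with 102 kb. They made up 6.45% of the shared H3K4me3 bases on the left and 6.50% on the right. Of the shared H3K27me3 bases they made up 9.60% on the left and 7.96% on the right. Over the whole chromosome the share of H3K4me3 bases was 6.48%, against 4.002% to 5.92% on chromosomes 3 to 12. The share of H3K27me3 bases was 8.74%, inside the 5.85% to 9.44% of those chromosomes. Chromosome 2 had 6.46% of its H3K4me3 bases and 11.3% of its H3K27me3 bases co-marked. By segment, co-marked bases reached 14.3% of the H3K27me3 bases in the right interior blocks, 12.3% in the left interior block and only 4.18% in the right end block. Of the H3K4me3 bases they made up 7.75%, 8.11% and 5.22% in the same 3 segments. H3K4me3 set the segments, so these shares are not independent of how they were cut.

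The longest co-marked interval of the left side was 2602 bp, from base 29635926 to 29638527 of chromosome 1. It carried H3K4me3 folds of 86.5 and 64.8 over 384 and 356 fragments, and H3K27me3 folds of 41.7 and 24.8 over 145 and 108 fragments. The next on the left were 1943 bp, from 631246 to 633188, and 1679 bp, from 43433326 to 43435004. On the right the longest were 1811 bp, from 251564699 to 251566509, then 1594 bp, from 251302088 to 251303681, and 1566 bp, from 251337665 to 251339230. The first of these had H3K4me3 folds of 44.0 and 38.3 and H3K27me3 folds of 14.3 and 10.2. All 3 of the right side lie within 1 Mb of each other, just inside the border at 250.4 Mb.

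The strongest H3K4me3 regions, by the mean fold of the replicates, lay on both sides at similar heights. On the left these were bases 26472939 to 26473446, with folds of 249 and 420, and bases 9522560 to 9525719, with folds of 178 and 468. On the right they were bases 325830463 to 325831320, with folds of 229 and 457, and bases 203189275 to 203190228, with folds of 165 and 460. The replicates differed in fold by more than the sides did, so the order of these regions is not firm. The longest H3K4me3 regions were 4387 bp on the left, starting at base 734641, and 4508 bp on the right, starting at base 320242199.

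The longest shared H3K27me3 region of the left side was also its strongest, 7168 bp from base 21273493 to 21280660, with folds of 115 and 89.0. The second strongest on the left was at bases 1505747 to 1507036, with folds of 83.9 and 110. On the right the strongest pair lay close together, at bases 248089346 to 248090989, with folds of 102 and 133, and at bases 248103734 to 248105398, with folds of 78.1 and 145. This pair lies at the left edge of the longest stretch of the right side without shared H3K4me3, which ran for 1901 kb from base 248105369 to 250006483. The longest H3K27me3 region of the chromosome, 10507 bp from base 314501098, lay in the right end block.

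Across 1 Mb bins of chromosome 1 the amounts of the marks rose and fell together, more closely on the left than on the right. Spearman's rho was 0.595 over 167 bins on the left and 0.355 over 167 bins on the right, with Pearson's r of 0.672 and 0.518. Bins share libraries and neighbours, so these are descriptions only.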

How the data were processed

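Chromatin of ground young leaf (2 g) was cross-linked with 1% formaldehyde for 10 min, per the labels' protocols, and libraries were read as 150 bp pairs. The software was MACS2 2.2.7.1, BWA 0.7.17, deepTools 3.3.0 and Trimmomatic 0.38, per the submitters' processing notes, with roles and settings not given in the sources used here. Each immunoprecipitated library has its own deposited peak list. For each peak the authors' deposited lists give the fold enrichment, a linear ratio over the local background. They also give −log10 p-value and −log10 q-value columns, by the standard column layout of the deposited lists, which have no header line. The deposited score column was not used.

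Peaks that overlapped or touched were merged per list and intersected between replicates, keeping intervals of 100 bp or more. With fold and p read as a Poisson model of the fragments over the summit, 100% of the peaks gave a fragment number whole to within 0.01. Chromosome length was the last peak end over the 6 lists. The files use the sequence prefix Ca_59Chr. No genome of this build was used here, so no gene is assigned and no sequence is printed. Positions count from 1.

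The chromosome, its bins, windows and lists were chosen with earlier results of these data known. The blocks, the richest and poorest bins, the regions and the intervals named follow fixed rules of size and rank. Exact permutation tests of the mark labels over the 4 libraries compared the left-right contrasts of fold, width and recovery between the marks. Their p-values were given Benjamini-Hochberg adjustment over 3 measures. The same-numbered replicates share only a number in the labels. Python 3.11.15, numpy 2.4.6, pandas 2.3.3 and scipy 1.17.1 were used, and scripts were tested on simulated data.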

Additional observations from a re-analysis of the deposited data

Results flagged for a closer look

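The sides of chromosome 1 differed in opposite directions between the marks, in both libraries of each. Covered bases on the left minus those on the right, in points of the chromosome's total, were 4.92 and 4.46 in H3K4me3 replicates 1 and 2. They were -5.06 and -4.87 in H3K27me3 replicates 1 and 2. The difference between the marks on chromosome 1 was not tested, since the chromosome was chosen for the placement of its peaks. It is not particular to chromosome 1, as chromosomes 3 and 5 had the same opposition in both libraries. The left side of chromosome 3 held 67.1% and 66.8% of the H3K4me3 bases, and 45.5% and 45.6% of the H3K27me3 bases. The left side of chromosome 5 held 52.4% and 52.7% of the H3K4me3 bases, and 48.8% and 49.0% of the H3K27me3 bases.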

How the results depend on the processing

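Of 74 alternative values, 46 kept their direction and lay within the replicate spread or the allowed factor, 25 moved and 3 reversed. The cause of these moves was not tested. Reversed were the difference in recovery at a −log10 q of at least 10 (-0.258 points) and, without replicate 2, the differences in recovery and width. Leaving out a replicate number in turn gave -0.133 to -0.00242 for the fold difference, -0.0149 to 0.0268 for width and -0.0363 to 3.12 points for recovery. Blocking by replicate number, as labelled or crossed, changes only the permutation, so its differences equal the main ones and count among the 46 by construction. They were -0.0678, 0.00597 and 1.54 points, with exact permutation p of 0.5, 1 and 1 for the block as labelled (n = 2 libraries each). Deviations of same-numbered libraries over 334 bins gave Pearson's r of -0.147, with 2 pairs. This value cannot tell whether same-numbered libraries came from the same plant, which the labels do not state. With the numbers crossed, an alternative chosen after seeing the data, 0 of 3 measures were called.

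The left share of H3K4me3 (52.2%) was 52.5% with peaks joined within 1 kb, 52.4% with bases of either replicate, and 52.2% to 52.5% leaving out a replicate. That of H3K27me3 (47.3%) was 47.6% at the stricter q, 47.6% with bases of either replicate, 47.4% for regions counted, and 47.5% to 47.6% leaving out a replicate. The H3K4me3 departure (24.2 points) was 23.8 with bases of either replicate, 22.3 for regions counted, 26.0 in bins of 2%, 22.2 in bins of 10%, 24.9 against a mean averaged with its mirror image, 25.7 against chromosomes 2 to 12, and 23.8 to 24.1 leaving out a replicate. The H3K27me3 departure (19.99 points) was 20.8 at the stricter q, 20.5 with peaks joined, 19.4 with bases of either replicate, 25.2 in bins of 2%, 18.7 in bins of 10%, 19.3 against the mirrored mean, 19.5 against chromosomes 2 to 12, and 19.5 to 19.8 leaving out a replicate. With no smoothing and a limit of 1.5 times the mean, dense bins numbered 73 for H3K4me3 and 94 for H3K27me3. All 8 H3K4me3 blocks and all 11 H3K27me3 blocks kept a dense bin under every alternative run on dense bins.

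Chromosome length rests on peaks, and bases that reads cannot be placed on cannot be told apart from bases without a mark. H3K27me3 peaks rest on a median of 21 fragments. H3K27me3 weaker than the called peaks may have been missed, and how much was not tested. Chromosomes 3 to 12 are not replicates of chromosome 1.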

Other observations

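H3K9me2 on chromosome 1 did not share the contrast between the ends. The outer 15% held 35.8% of the shared H3K9me2 bases of the left side and 34.9% of those of the right side. Replicates 1 and 2 gave 32.1% and 34.2% on the left, against 32.2% and 34.0% on the right. In the right interior blocks of H3K4me3, H3K9me2 covered 2.25 and 1.83 kb per Mb, against 3.86 and 3.34 kb per Mb in the right end block. Of all H3K9me2 peaks on the left, 31.8% and 42.9% were found again in the other replicate, against 32.9% and 39.7% on the right, so these values are less firm than those of the other marks.

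At the border at 250.4 Mb, H3K9me2 covered 0.649 and 0.940 kb per Mb on the H3K4me3-dense side in replicates 1 and 2, against 14.8 and 9.60 kb per Mb on the poor side. The other borders described above did not all share this order. At 261.7 Mb it was the opposite, with 6.83 and 7.06 kb per Mb on the dense side and 4.85 and 3.29 on the poor side. At 54.3 Mb the libraries disagreed. Replicate 1 gave 1.57 kb per Mb on the dense side and 1.37 on the poor side, and replicate 2 gave 0.426 and 2.29. Of the H3K9me2 peaks of chromosome 1, 33.2% and 37.2% lay where the local background was over 5 times its lowest value in the library, against 0.438% and 0.492% of H3K4me3 peaks. The part of this background in the H3K9me2 step at 250.4 Mb was not tested.

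Chromosome 2, which is left out of the mean profile, also had many interior bins dense in H3K4me3, 47 of 124, all right of its midpoint. On chromosome 1 they were 60 of 233. Interior bins dense in H3K27me3 made up 36.3% on chromosome 2, against 27.9% on chromosome 1. For bins dense in both marks the shares were 33.9% and 18.5%. From 55% to 80% of the length, chromosome 2 held 25.5% of its H3K27me3 bases, against 22.8% on chromosome 1. For H3K4me3 that window held 21.4% on chromosome 2, against 29.3% on chromosome 1. The left share of H3K4me3 on chromosome 2 was 13.6%, against 52.2% on chromosome 1. Its placement was uneven too, with 37.1% of the H3K4me3 bases of the left side and 62.3% of those of the right side in the outer 15%. Its left side reached 50% of its H3K4me3 bases at 24.15% of the length from its end, and its right side at 11.7%, against 7.98% on the left and 24.2% on the right of chromosome 1.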
